A study of Mus musculus with 12 samples.

Results

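The genes described here encode the proteins of the cytosolic ribosome, measured in mouse liver. The members are all genes whose only symbol in the array annotation is Rpl or Rps followed by a number, together with Rplp0 to Rplp2 and Rpsa, without pseudogenes and without the Rps6k kinases. The rule itself uses names and no measured values, although this gene group was picked with earlier results of these data known, and it gave 69 of the 22180 genes with a single symbol. Of these, 35 encode proteins of the large subunit and 23 encode proteins of the small subunit, and these 58 are called the core genes below. Another 9 are paralogs with a suffix in their symbol (Rpl3l, Rpl6l, Rpl7l1, Rpl10l, Rpl22l1, Rpl32l, Rpl39l, Rps4l and Rps27l), of which RefSeq lists Rpl6l and Rps4l as pseudogenes. The remaining 2 match the naming rule without being ribosomal proteins of the usual kind. Rps19bp1 encodes a protein that binds Rps19, and Rps23rg1 is a retrogene of Rps23. No filter on dim signals was used, so all 69 were tested.

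A ribosome has a small subunit, which reads the mRNA, and a large subunit, which joins amino acids, and each is built of ribosomal RNA and a set of proteins used in about equal numbers. The mRNAs of these proteins share a pyrimidine-rich start, the 5′ terminal oligopyrimidine tract, through which the mTOR pathway controls their translation when nutrients change. Hepatocytes secrete most plasma proteins and carry a large pool of ribosomes.

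Livers of male C57BL/6 mice gave the total RNA, with 3 animals in each group and each array holding the RNA of a different animal, 12 in all. The WT chow group had intact Ahnak and regular chow, and the WT HFD group had intact Ahnak and a high-fat diet with 60% fat for 8 weeks. The KO chow and KO HFD groups lacked Ahnak, which encodes a very large scaffold protein, and had the same 2 diets. The labels state neither how the allele was made nor how old the mice were. The design asks how loss of Ahnak changes liver expression on each diet, and the crossed groups also allow the diet comparison within each genotype. All levels below are log2 signals as deposited, and all differences are log2 differences with the standard error (SE) of a limma fit over the 12 arrays. A gene was called at a Benjamini-Hochberg adjusted p under 0.05 over all 22180 genes.

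Array medians lay between 5.58 and 5.70 over all probe sets. The first principal component (32.2% of the variance) placed the 3 WT HFD arrays at 30.0 to 32.3 and the other 9 at -18.5 to -3.95, so the WT HFD group stands apart over the whole table. Hepatocyte markers read high (Alb 14.11, Ttr 14.03, Hnf4a 12.75), as the label liver implies. Ahnak differed by -0.04 ± 0.14 between KO and WT on chow (adjusted p = 0.971) and by -0.48 ± 0.14 on HFD (adjusted p = 0.0483, limma). The Ahnak probe set read 7.26, 7.06 and 6.74 on WT HFD and 6.46, 6.52 and 6.62 on KO HFD. The KO HFD arrays overlapped the WT chow arrays. The call on HFD thus goes with higher WT HFD levels, although the diet difference in WT was not called (0.38 ± 0.14, adjusted p = 0.141, limma). The probe set does not check the genotype labels on either diet, and the labels do not state whether its probes lie in the deleted part. Each value that follows for a comparison with WT HFD therefore rests on 3 arrays that differ from the rest in many genes.

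The start regions of some core genes hold a pyrimidine run, and those of others do not. RefSeq promoter windows (GRCm38.p6) of 250 bases before to 50 after the start were found for 45 of the 58 core genes, and 6 of those that passed the threshold in at least 1 comparison below are shown. Each line gives 60 bases before the start and 20 from it on the gene's own strand. Capitals mark a run of 8 or more C or T that comes within 15 bases of the start.
Rpl28: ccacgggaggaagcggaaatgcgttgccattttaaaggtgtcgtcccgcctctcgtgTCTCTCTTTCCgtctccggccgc
Rpl15: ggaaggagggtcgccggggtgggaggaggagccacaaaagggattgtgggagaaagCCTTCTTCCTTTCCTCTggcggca
Rps26: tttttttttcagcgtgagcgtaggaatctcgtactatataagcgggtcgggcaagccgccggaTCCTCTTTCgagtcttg
Rpl7a: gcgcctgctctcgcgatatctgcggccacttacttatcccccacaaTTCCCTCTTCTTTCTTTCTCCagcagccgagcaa
Rps28: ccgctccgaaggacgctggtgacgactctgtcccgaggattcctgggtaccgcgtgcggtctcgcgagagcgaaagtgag
Rpl10a: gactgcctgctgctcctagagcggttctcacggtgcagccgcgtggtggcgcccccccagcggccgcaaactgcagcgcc
These lie at chr7:4792905-4792984 on the plus strand (Rpl28), chr14:18270967-18271046 on the minus strand (Rpl15), chr10:128626487-128626566 on the minus strand (Rps26), chr2:26910747-26910826 on the plus strand (Rpl7a), chr17:33824543-33824622 on the minus strand (Rps28) and chr17:28328411-28328490 on the plus strand (Rpl10a). The runs are 11, 17, 9 and 21 bases long in the first 4, while Rps28 and Rpl10a hold no such run near the annotated start.

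A run of this kind was present in 23 of 45 core windows (51.1%) and in 17.8% of all 27025 RefSeq windows of the same length. The stricter form, a C exactly at the start followed by 4 pyrimidines, was present in 10 of 45 (22.2%) and in 2.48% of all. The letters CCGGAAG, which ETS family factors such as GABP bind, were found on either strand in 20 of 45 (44.4%) and in 9.11% of all. On the reverse strand these letters include 5 pyrimidines in a row and can overlap the run. The YY1 core AAGATGGC was found on either strand in 2 of 45 (4.44%) against 2.87%, and TATAAA in 4 of 45 (8.89%) against 14.2%. Of the 8 core genes called higher in KO than WT on HFD, 3 hold the run, and of the 8 with a window among those called lower on HFD in WT, 4 hold it. Core genes with and without these letters were thus both among the called genes.

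Core ribosomal protein signals were lower on the 3 arrays of WT mice on HFD than on the other 9. The mean log2 level over the 58 core genes was 9.29, 9.18 and 9.17 on the WT chow arrays, 8.99 to 9.03 on the 3 WT HFD arrays, 9.28, 9.23 and 9.19 on KO chow, and 9.17, 9.21 and 9.20 on KO HFD. Group means were 9.21 ± 0.068 for WT chow, 9.01 ± 0.017 for WT HFD, 9.23 ± 0.043 for KO chow and 9.20 ± 0.019 for KO HFD (SD, n = 3). The WT HFD arrays lie below every other array, and the other 3 groups overlap one another. The mean of all genes lay between 6.55 and 6.57 on every array.

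**Figure D1:**
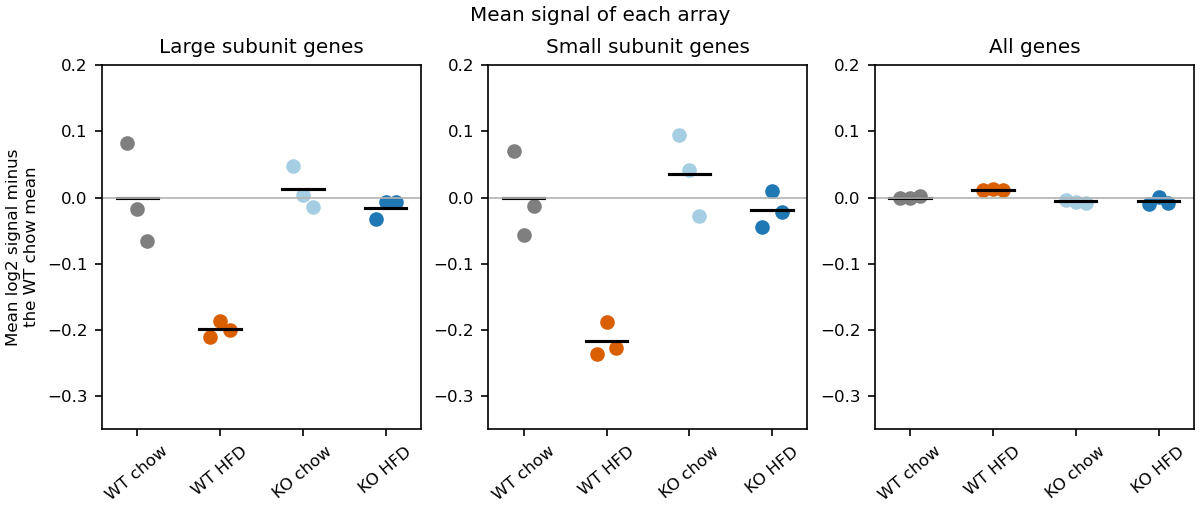
Mean log2 signal of each array (points) minus the mean of the WT chow arrays, for 35 large subunit genes, 23 small subunit genes and all 22180 genes, with group means as bars. In both subunit panels the 3 WT HFD points lie below the other 9, while the means of all genes stay between 6.55 and 6.57 in log2 units.

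The lower level on WT HFD was spread over many genes of both subunits. WT HFD was the lowest of the 4 group means for 48 of the 58 core genes (82.8%), and for 31.7% of all genes. For 22 core genes (37.9%) all 3 WT HFD arrays lay below all other 9 arrays, against 5.12% of all genes. These 22 were Rpl6, Rpl7a, Rpl10a, Rpl13, Rpl14, Rpl15, Rpl23a, Rpl27, Rpl28, Rpl29, Rpl32, Rpl35, Rplp0, Rplp1, Rps3, Rps6, Rps9, Rps10, Rps12, Rps18, Rps24 and Rps28. In a whole tissue, fewer cells of a type and less RNA per cell cannot be told apart.

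**Figure D2:**
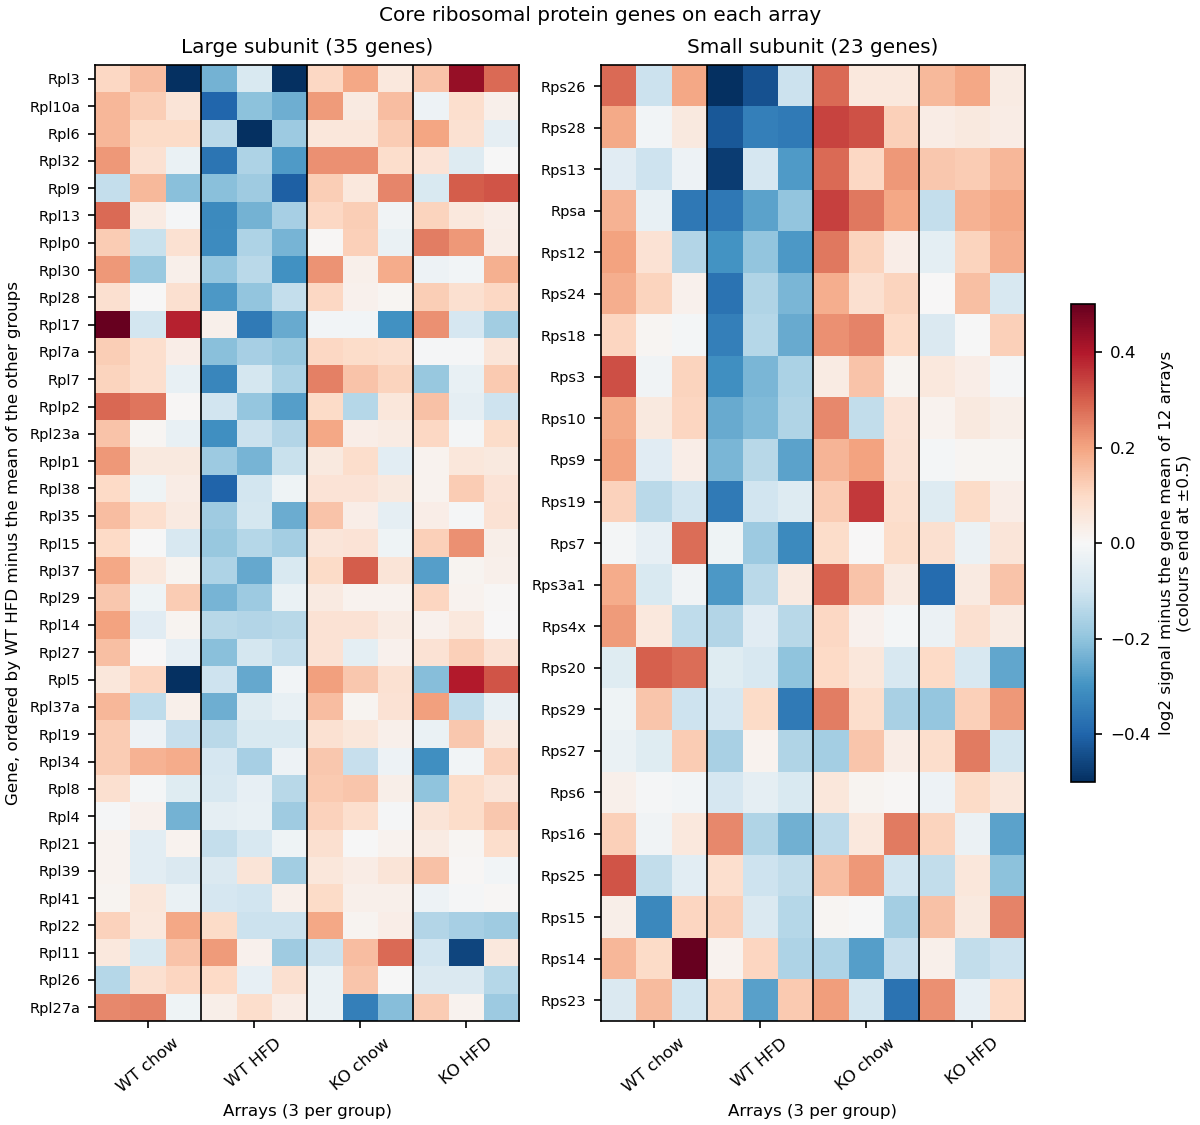
Log2 signal of each core gene on each array minus that gene's mean over 12 arrays, with 3 arrays per group and genes ordered from the lowest WT HFD level relative to the other groups at the top. Most rows are blue across the WT HFD columns, and single arrays stand out for some genes, such as the third WT chow array for Rpl3 (8.82, against 9.51 and 9.56 on the other WT chow arrays).

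In WT mice, most core genes read lower on HFD than on chow. Of the 69 members, 9 were called lower, 1 was called higher (Rps23rg1) and 59 were not called, while 2.94% of all genes were called lower and 4.02% higher. The called shares were 5 of 35 large subunit genes and 4 of 23 small subunit genes. The median difference was -0.21 for large subunit genes and -0.22 for small subunit genes (1.15-fold and 1.16-fold lower), against 0.0033 for all genes. Of 58 core genes 55 had a negative difference, and 26 had all WT HFD arrays below all WT chow arrays, against 12.2% of all genes. No core gene had all WT HFD arrays above, against 14.2% of all genes. At an unadjusted p under 0.05 there were 31 members, against 20.6% of all genes. Bright genes were called more often than dim ones: among all genes with a mean over 9.5, 8.76% were called lower and 25.6% had all WT HFD arrays below, against 6 and 18 of the 30 core genes over that level.

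On HFD, most core genes read higher in KO than in WT mice. Of the 69 members, 8 core genes were called higher in KO HFD than in WT HFD, 1 was called lower (again Rps23rg1) and 60 were not called, while 3.89% of all genes were called higher and 6.62% lower. These were 5 of 35 large subunit genes and 3 of 23 small subunit genes, with a median difference of 0.19 in each class (1.14-fold) against 0.0011 for all genes. The difference was positive for 51 of 58 core genes. For 33 core genes (21 of the large and 12 of the small subunit) every KO HFD array lay above every WT HFD array, against 13% of all genes, and for 2 every array lay below, against 15.6%. Those above included 2 of the 14 core genes with the dimmest probe sets and 12 of the 13 with the brightest. Among all genes with a mean over 9.5, 11.9% were called higher and 25.4% had every KO HFD array above, against 8 and 26 of the 30 core genes over that level. At an unadjusted p under 0.05 there were 31 members, against 23.8% of all genes. Both comparisons use the same 3 WT HFD arrays, so their opposite signs are not independent of each other.

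**Figure D3:**
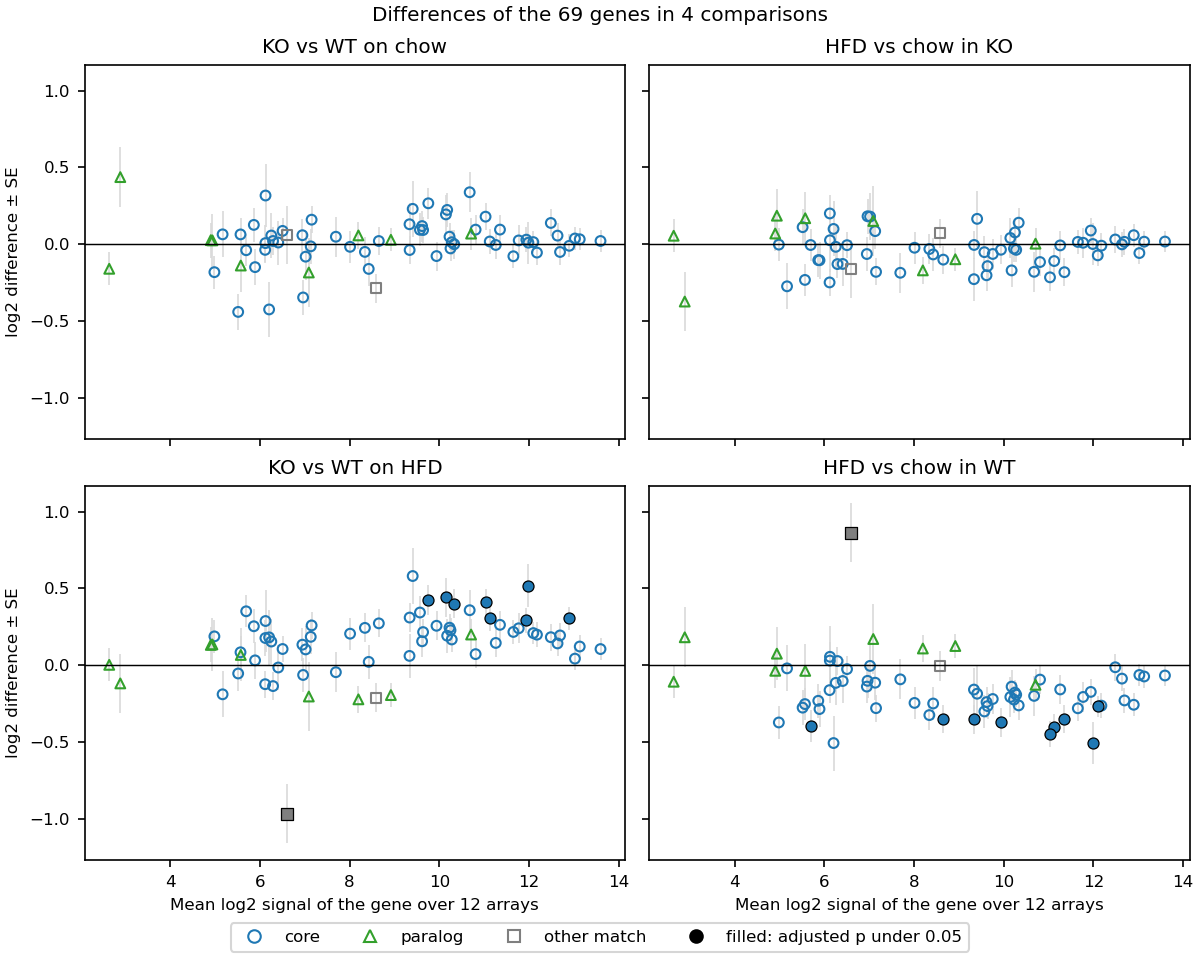
Log2 difference ± SE of each of the 69 genes against its mean log2 signal, in 4 comparisons, with core genes as circles, paralogs as triangles and Rps19bp1 and Rps23rg1 as squares. Filled symbols passed the adjusted threshold: 9 genes in KO vs WT on HFD, 10 in HFD vs chow in WT, and 0 in each of the comparisons that leave out the WT HFD arrays.

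The number called depended on single arrays, while the medians of both comparisons kept their sign. For KO against WT on HFD, leaving out WT HFD replicate 1, 2 or 3 left 2, 3 and 3 members called higher. These were 2.9%, 4.35% and 4.35% of the 69, against 2.48%, 2.36% and 2.39% of all genes. Leaving out KO HFD replicate 1, 2 or 3 left 5, 2 and 4. The shares were then 7.25%, 2.9% and 5.8%, against 3.53%, 2.39% and 3.07% of all genes. For HFD against chow in WT, leaving out WT chow replicate 1, 2 or 3 left 2, 5 and 3 called lower. These were 2.9%, 7.25% and 4.35% of members, against 1.75%, 2.86% and 1.43% of all genes. Without WT HFD replicate 1, 2 or 3 there were 2, 2 and 3 (2.9%, 2.9% and 4.35%). The shares of all genes were 1.78%, 1.45% and 1.68%. Without KO chow replicate 1, 2 or 3 there were 3, 4 and 3 (4.35%, 5.8% and 4.35%). The shares of all genes were 2.61%, 2.42% and 2.55%. Without KO HFD replicate 2 there were 5 (7.25%), against 2.78% of all genes. The median over all 69 members stayed between 0.16 and 0.19 for KO against WT on HFD and between -0.21 and -0.13 for the diet difference in WT over all such fits. With each array centred on its median, 3 members were called higher and 1 lower in KO HFD, against 2.46% and 8.73% of all genes, and 2 lower and 1 higher for diet in WT, against 2.06% and 4.91%. The median over the members was then 0.12 for KO against WT on HFD and -0.14 for diet in WT. The medians of all genes moved to -0.06 and 0.04, so array medians differed between these groups.

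Small subunit genes included the calls that were most stable to leaving out an array. Rps28 encodes a small protein near the mRNA exit channel, and its start region is shown above. Its level was 11.22, 11.02 and 11.08 on WT chow, 10.61, 10.69 and 10.68 on WT HFD, 11.37, 11.35 and 11.15 on KO chow, and 11.07, 11.08 and 11.07 on KO HFD. The 3 WT HFD arrays were the lowest of all 12, with no overlap. Rps28 was lower on HFD than chow in WT (-0.45 ± 0.09, adjusted p = 0.0091) and higher in KO than WT on HFD (0.41 ± 0.09, adjusted p = 0.0094). It kept both calls in all 12 fits that left out 1 array, which no other core gene did.

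Rps26 contacts the mRNA beside the exit channel and is mutated in Diamond-Blackfan anaemia. Its level was 12.27, 11.88 and 12.18 on WT chow, 11.38, 11.55 and 11.88 on WT HFD, 12.27, 12.04 and 12.04 on KO chow, and 12.15, 12.18 and 12.03 on KO HFD. The highest WT HFD array reached the lowest WT chow array, while KO HFD and WT HFD did not overlap. The diet difference in WT was -0.51 ± 0.14 (adjusted p = 0.0458) and the genotype difference on HFD 0.52 ± 0.14 (adjusted p = 0.0311). The calls held in 2 and 8 of the 12 fits without 1 array.

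Rps13, a protein of the small subunit, read 9.70, 9.65 and 9.73 on WT chow, 9.28, 9.67 and 9.47 on WT HFD, 10.04, 9.86 and 9.97 on KO chow, and 9.89, 9.88 and 9.92 on KO HFD. Both KO groups lay above both WT groups, and WT HFD overlapped WT chow. The genotype difference was 0.42 ± 0.10 on HFD (adjusted p = 0.0171, kept in 9 of 12 fits without 1 array) and 0.27 on chow, where it did not pass.

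Rps3 lies at the mRNA entry channel and also takes part in DNA repair. It read 10.26, 9.92 and 10.05 on WT chow, 9.63, 9.71 and 9.78 on WT HFD, 9.98, 10.08 and 9.95 on KO chow, and 9.99, 9.97 and 9.93 on KO HFD. Rps24, another Diamond-Blackfan gene, read 8.83, 8.76 and 8.67 on WT chow, 8.28, 8.50 and 8.42 on WT HFD, 8.83, 8.73 and 8.76 on KO chow, and 8.65, 8.80 and 8.57 on KO HFD. In both genes the WT HFD arrays were the lowest 3 of 12. The diet difference in WT was -0.37 ± 0.09 for Rps3 (adjusted p = 0.036) and -0.35 ± 0.09 for Rps24 (adjusted p = 0.0371), kept in 6 and 3 of the 12 fits without 1 array.

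Rps6, the substrate of the S6 kinases downstream of mTOR, had the brightest probe set of the core (mean 13.59). It read 13.62, 13.59 and 13.58 on WT chow, 13.51, 13.55 and 13.52 on WT HFD, 13.65, 13.61 and 13.60 on KO chow, and 13.57, 13.69 and 13.65 on KO HFD. Again the WT HFD arrays were the lowest 3, yet the differences were small and not called (-0.07 ± 0.07 for diet in WT and 0.11 ± 0.07 for genotype on HFD). Rpsa, also known as a laminin receptor, read 10.85, 10.64 and 10.32 on WT chow, 10.32, 10.41 and 10.48 on WT HFD, 11.02, 10.94 and 10.87 on KO chow, and 10.56, 10.85 and 10.87 on KO HFD. KO HFD lay above WT HFD without overlap, with a difference of 0.36 ± 0.13 that was not called (adjusted p = 0.107).

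Among large subunit genes, Rpl10a forms the stalk beside the exit site for tRNA. It read 11.29, 11.25 and 11.19 on WT chow, 10.73, 10.92 and 10.88 on WT HFD, 11.34, 11.17 and 11.28 on KO chow, and 11.10, 11.21 and 11.15 on KO HFD. The WT HFD arrays lay below the other 9. The diet difference in WT was -0.40 ± 0.08 (adjusted p = 0.0136, kept in 11 of 12 fits without 1 array) and the genotype difference on HFD 0.31 ± 0.08 (adjusted p = 0.0339, kept in 7).

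The acidic stalk, which recruits the elongation factors, is built of Rplp0, Rplp1 and Rplp2. Rplp0, its base, read 10.46, 10.22 and 10.41 on WT chow, 10.02, 10.18 and 10.10 on WT HFD, 10.34, 10.45 and 10.30 on KO chow, and 10.59, 10.55 and 10.37 on KO HFD. It was higher in KO than WT on HFD (0.40 ± 0.10, adjusted p = 0.0186, kept in 8 of 12 fits without 1 array), with the WT HFD arrays below the other 9. Rplp1 and Rplp2 lay just outside the threshold for diet in WT, at -0.28 ± 0.08 (adjusted p = 0.0565) and -0.37 ± 0.11 (adjusted p = 0.0595), each with no overlap between WT HFD and WT chow. The probe set of Rplp1 was bright (mean 11.65) and that of Rplp2 dim (4.98, below the median of 6.17 over all genes).

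Rpl28 and Rpl15, both with a pyrimidine run at the start shown above, were called for genotype on HFD. Rpl28 read 12.98, 12.90 and 12.98 on WT chow, 12.61, 12.70 and 12.78 on WT HFD, 13.00, 12.92 and 12.91 on KO chow, and 13.02, 12.98 and 13.00 on KO HFD. Rpl15 read 12.04, 11.94 and 11.86 on WT chow, 11.75, 11.80 and 11.77 on WT HFD, 12.00, 12.01 and 11.92 on KO chow, and 12.06, 12.17 and 11.97 on KO HFD. In both the WT HFD arrays were the lowest 3 of 12. The differences between KO and WT on HFD were 0.31 ± 0.08 (adjusted p = 0.0230) and 0.29 ± 0.08 (adjusted p = 0.0416), kept in 7 and 3 of the 12 fits without 1 array.

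Rpl9 read 10.03, 10.31 and 9.94 on WT chow, 9.94, 9.97 and 9.74 on WT HFD, 10.27, 10.20 and 10.39 on KO chow, and 10.07, 10.45 and 10.46 on KO HFD. KO HFD lay above WT HFD without overlap, while WT HFD and WT chow overlapped. The genotype difference on HFD was 0.44 ± 0.13 (adjusted p = 0.0488) and held in 3 of 12 fits without 1 array.

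The other large subunit genes called for diet in WT were Rpl7a, Rpl13, Rpl6 and Rpl32. Rpl7a read 12.22, 12.18 and 12.13 on WT chow, 11.89, 11.93 and 11.91 on WT HFD, 12.20, 12.19 and 12.18 on KO chow, and 12.09, 12.09 and 12.16 on KO HFD. Rpl13 read 9.62, 9.38 and 9.33 on WT chow, 9.02, 9.10 and 9.17 on WT HFD, 9.44, 9.46 and 9.32 on KO chow, and 9.45, 9.39 and 9.37 on KO HFD. For both the WT HFD arrays lay below the other 9, and Rpl7a had the smaller diet difference (-0.27 ± 0.07, adjusted p = 0.0382) beside Rpl13 (-0.35 ± 0.09, adjusted p = 0.0409). The calls held in 3 and 1 of the 12 fits without 1 array.

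Rpl6 read 5.86, 5.79 and 5.79 on WT chow, 5.56, 5.18 and 5.51 on WT HFD, 5.75, 5.75 and 5.82 on KO chow, and 5.89, 5.77 and 5.65 on KO HFD. Rpl32 read 11.57, 11.43 and 11.32 on WT chow, 10.99, 11.20 and 11.07 on WT HFD, 11.58, 11.58 and 11.44 on KO chow, and 11.42, 11.29 and 11.35 on KO HFD. Again the WT HFD arrays were the lowest 3 in each gene. The diet difference in WT was -0.40 ± 0.10 for Rpl6 (adjusted p = 0.0411) and -0.35 ± 0.09 for Rpl32 (adjusted p = 0.0429), and these calls held in 3 and 1 of the 12 fits without 1 array. Rpl6 lay just outside the threshold for genotype on HFD (0.35, adjusted p = 0.0515). Its probe set was dim (mean 5.69), and 10 of the 58 core genes, Rpl6 included, had means below the median of all genes (6.17).

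**Figure D4:**
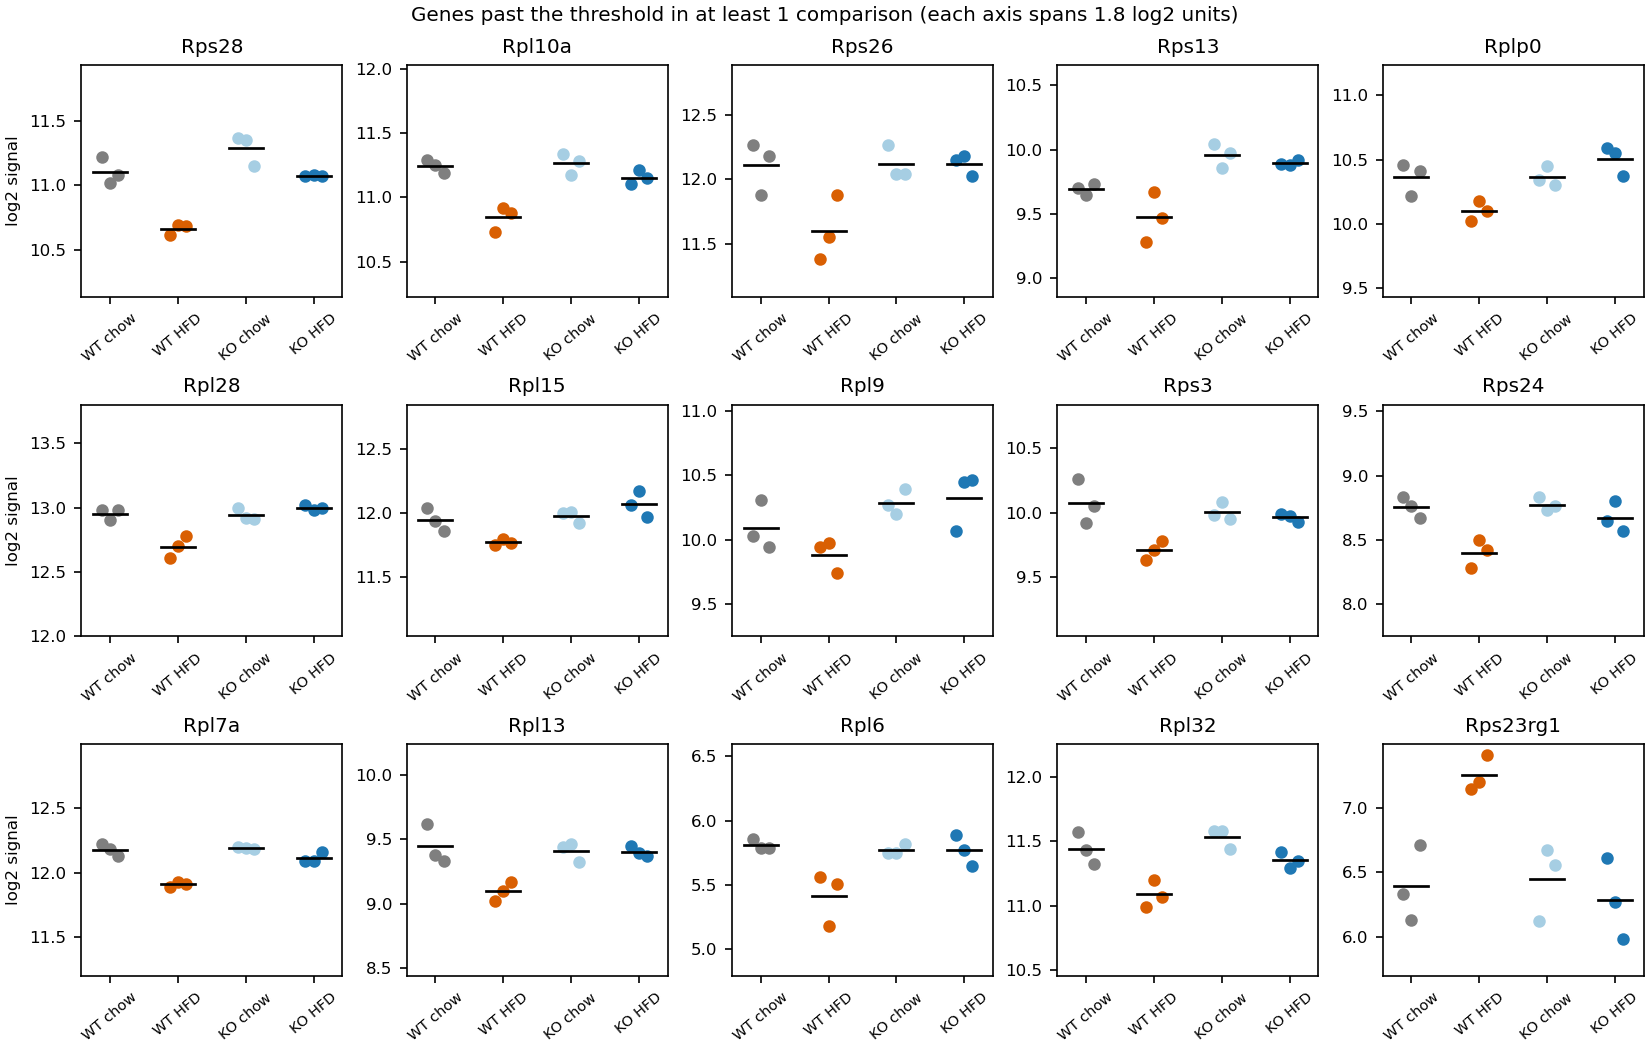
Log2 signal on each array (points, 3 per group, bars at the group means) for the 14 core genes and Rps23rg1 called in at least 1 comparison, each axis spanning the same range. The WT HFD mean is the lowest of the 4 in each core gene shown and the highest in Rps23rg1, where its points run from 7.15 to 7.41.

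Rpl3, next to the peptidyl transferase centre, had the largest genotype difference on HFD among core genes (0.58 ± 0.18) without passing (adjusted p = 0.0664). It read 9.51, 9.56 and 8.82 on WT chow, 9.17, 9.33 and 8.83 on WT HFD, 9.51, 9.60 and 9.46 on KO chow, and 9.55, 9.84 and 9.69 on KO HFD. In each WT group 1 array was low, and every KO HFD array lay above every WT HFD array. The probe set used for Rpl3 lies among those of another chromosome, as set out below. The Rpl3 probe sets on its own chromosome differed by 0.15 and 0.31. Not every core gene read lowest on WT HFD. Those that did not were dim, with means of 5.17 to 7.69 against a median of 9.59 over all core genes. Among them were Rpl5 and Rpl11, with means of 6.12 and 5.17 against a median of 6.17 over all genes. Rpl5 and Rpl11, which with 5S ribosomal RNA bind Mdm2 and so link ribosome assembly to p53, differed by 0.29 ± 0.20 and -0.19 ± 0.15 for genotype on HFD and by 0.06 ± 0.20 and -0.02 ± 0.15 for diet in WT, with overlap and no call.

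Rps23rg1 moved against the core genes. Its level was 6.33, 6.13 and 6.71 on WT chow, 7.15, 7.20 and 7.41 on WT HFD, 6.12, 6.67 and 6.56 on KO chow, and 6.61, 6.27 and 5.98 on KO HFD. The WT HFD arrays were the highest of the 12. It was higher on HFD than chow in WT (0.86 ± 0.19, adjusted p = 0.0178, kept in 8 of 12 fits without 1 array) and lower in KO than WT on HFD (-0.97 ± 0.19, adjusted p = 0.0068, kept in 12 of 12). The call for diet was lost without WT chow replicate 1 or 2 or WT HFD replicate 2 or 3. Rps19bp1, the other gene that only shares the name, read 8.70, 8.60 and 8.83 on WT HFD and 8.33, 8.61 and 8.55 on KO HFD, and its difference of -0.21 ± 0.10 was not called.

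None of the 9 paralogs was called in any comparison (limma), and at an unadjusted p under 0.05 there were 2 of 9 in KO against WT on HFD and 0 for diet in WT, against 23.8% and 20.6% of all genes. Those 2 were Rps27l, a p53 target, and Rpl7l1, a nucleolar relative of Rpl7. Rps27l read 8.95, 9.05 and 9.07 on WT HFD and 8.79, 8.82 and 8.88 on KO HFD, and Rpl7l1 read 8.19, 8.34 and 8.34 against 7.97, 8.17 and 8.07. In both every KO HFD array lay below every WT HFD array, as in 15.6% of all genes. The differences were -0.19 ± 0.08 (adjusted p = 0.138) and -0.22 ± 0.09 (adjusted p = 0.146). The median over the 9 paralogs was 0.0028 for genotype on HFD and 0.08 for diet in WT. Rpl10l (mean 2.64) and Rpl32l (2.89) had the dimmest probe sets of all 69.

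On chow, KO and WT mice showed no called difference in these genes: 0 of 69 higher and 0 lower (limma), with 0.00902% of all genes called higher and 0 lower. At an unadjusted p under 0.05 there were 7 of 69, against 7.02% of all genes. The smallest p belonged to Rps14, with 5.68, 5.61 and 6.03 on WT chow and 5.36, 5.24 and 5.40 on KO chow (-0.44 ± 0.12, adjusted p = 0.408). Arrays of KO chow lay wholly above WT chow for 4 core genes and wholly below for 2, against 5.95% and 7.29% of all genes. The median over core genes was 0.021. HFD against chow in KO mice also gave 0 of 69 in either direction (limma, 3 of 69 at an unadjusted p under 0.05, against 8.51% of all genes), with 0.0857% of all genes called higher and 0.158% lower. The KO HFD arrays lay wholly above KO chow for 1 core gene and wholly below for 8, against 6.99% and 6.79% of all genes. The median over core genes was -0.025, and Rps28 differed by -0.22.

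The interaction asks whether the genotype difference depends on diet. No member was called (limma), with 17 of 69 at an unadjusted p under 0.05, against 17.3% of all genes, while 1.43% of all genes were called higher and 2.1% lower. The median over core genes was 0.18, close in size to the genotype difference on HFD. The smallest adjusted p were those of Rps23rg1 (-1.03 ± 0.27, adjusted p = 0.0615), Rplp0 (0.40, adjusted p = 0.136) and Rpl28 (0.32, adjusted p = 0.140). A genotype effect that differs between diets is therefore not shown for any single member.

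Many members were read through a probe set that lies among those of another chromosome. Probe set numbers run in genome order, so the 20 neighbours on each side give the chromosome of a probe set. This check was chosen after the data were seen. Of 21456 genes that could be placed, 99.7% lay among neighbours of their own chromosome and 0.336% among those of another, against 19 of 52 placed core genes (36.5%). Own place here means the gene's own chromosome, and elsewhere means another one. The position within a chromosome was not checked. Core genes read at their own place had levels of 4.98 to 12.49 (median 7.13), and those read elsewhere 9.34 to 13.59 (median 11.03). In 19 core genes with probe sets of both kinds, the brighter lay elsewhere in 16. Levels of different probe sets do not rank the abundance of their mRNAs, and whether processed copies of these genes contribute to the signal was not tested.

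**Figure D5:**
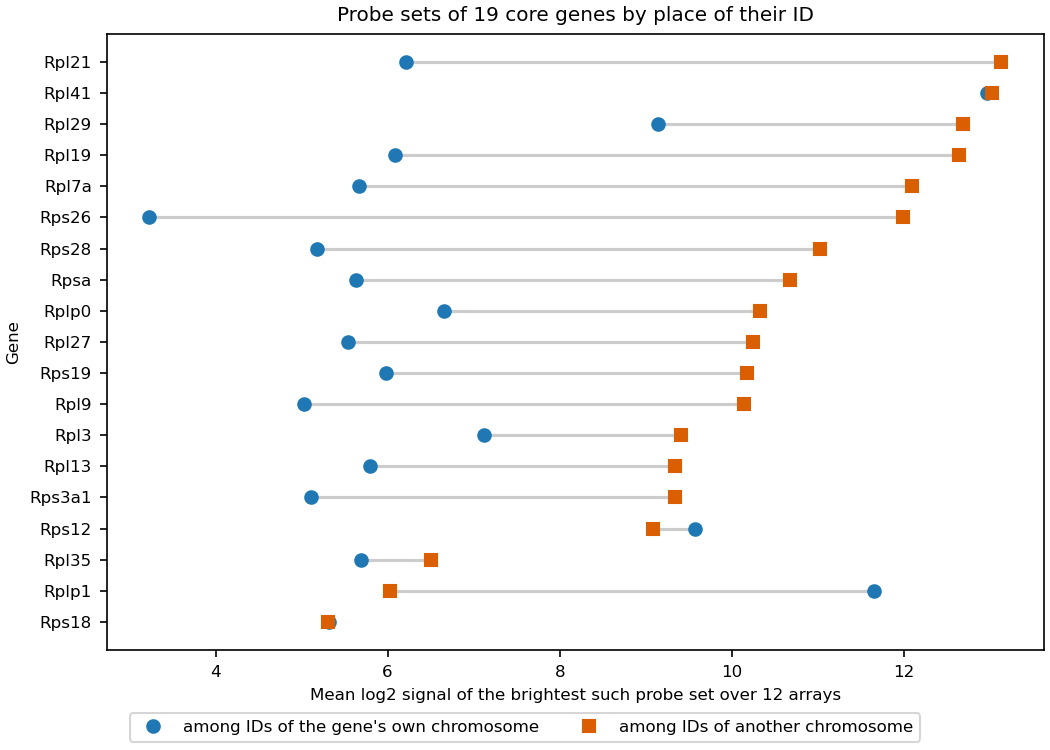
Mean log2 signal over 12 arrays of the brightest probe set of each kind in the 19 core genes with both, circles for a place among probe sets of the gene's own chromosome and squares for another chromosome. The square lies to the right in 16 genes, and the widest gap is that of Rps26 (3.23 against 11.99).

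The direction was the same in all probe sets of most genes but not of every gene. Over 24 core genes with more than 1 distinct probe set, every probe set had the same sign in 18 for genotype on HFD and in 21 for diet in WT. Only 19 of these genes had probe sets both at their own place and elsewhere. The own-place probe set of Rplp0 differed by -0.61 for diet in WT and 0.40 for genotype on HFD, and that of Rps28 by -0.15 and 0.23. For Rpl9 the own-place probe set differed by 0.03 between KO HFD and WT HFD, and for Rpl13 by 0.01. That of Rps26 was near the bottom of the scale (3.23) and differed by -0.06. Of the 19 core genes read elsewhere, 6 were called higher for genotype on HFD and 4 lower for diet in WT. The medians over all 19 were 0.24 and -0.20. Of the 33 read at their own place, 2 and 4 were called, and the medians over all 33 were 0.18 and -0.21. Of all genes, 3.89% were called higher for genotype on HFD and 2.94% lower for diet in WT.

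Genes that act with the ribosome were set beside its proteins, with 3.89% of all genes called higher and 6.62% lower for genotype on HFD, and 4.02% and 2.94% for diet in WT. Of 30 translation initiation factors, 4 were higher and 0 lower in KO than WT on HFD: Eif5, which triggers GTP hydrolysis at the start codon (0.41 ± 0.08, adjusted p = 0.0069), Eif2b3, Eif3k and Eif3d. In WT, 1 of the 30 was lower on HFD, again Eif5 (-0.29 ± 0.08, adjusted p = 0.0474). Of 13 elongation and termination genes, 1 was lower in KO HFD, the kinase Eef2k that inhibits elongation (-0.47 ± 0.09, adjusted p = 0.00691), and 0 were called for diet in WT. The list medians were 0.06 and 0.15 for genotype on HFD and -0.05 and -0.07 for diet in WT.

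Of 53 ribosome biogenesis genes, 2 were higher in KO HFD, near the 3.89% of all genes, the nucleolar GTPase Gnl2 (0.35 ± 0.09, adjusted p = 0.0225) and the snoRNP protein Nop56 (0.34 ± 0.10, adjusted p = 0.0398), and 0 were called for diet in WT. Of 14 RNA polymerase I genes, 0 were called for genotype and 1 was lower on HFD in WT (Polr1d, -0.38 ± 0.10, adjusted p = 0.0415). Among 23 genes listed as controlling ribosomal protein mRNA, Zbtb10 was higher in KO HFD (0.76 ± 0.12, adjusted p = 0.00163) and lower on HFD in WT (-0.77 ± 0.12, adjusted p = 0.00243). Zbtb10 encodes a zinc finger repressor that is not known for such control. Mlst8, a subunit of both mTOR complexes, was lower in KO HFD (-0.44 ± 0.11, adjusted p = 0.0250).

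The ribosomal proteins of mitochondria are a separate set. Of 71 measured, 1 was higher (Mrpl17) and 6 lower in KO than WT on HFD, with a median of -0.07, and 3 were higher and 2 lower on HFD in WT, with a median of 0.0035. These shares lie near those of all genes (3.89% and 6.62% for genotype, 4.02% and 2.94% for diet). Of the 4 cytosolic ribosomal proteins with other names 1 was measured, Fau, which carries Rps30. It differed by 0.21 ± 0.08 for genotype on HFD (adjusted p = 0.103) and by -0.12 ± 0.08 for diet in WT.

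Proliferation and stellate cell markers moved with the WT HFD group, and most other marker lists had few or no calls. Of all genes, 3.89% were called higher and 6.62% lower for genotype on HFD, and 4.02% and 2.94% for diet in WT. Of 7 measured proliferation genes, 5 were lower in KO than WT on HFD and 3 were higher on HFD in WT. Their mean level was 7.03 to 7.10 on WT HFD against 6.38 to 6.62 on the other 9 arrays. Of 8 stellate cell genes, 3 were lower and 3 higher in the same comparisons, with 8.96 to 9.31 on WT HFD against 8.41 to 8.78. Of 8 macrophage genes 0 were called in either comparison, with 9.54 to 10.05 on WT HFD against 9.25 to 9.61.

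Hepatocyte markers gave 2 of 8 higher in KO HFD (Serpina1a and Cps1) and 1 lower on HFD in WT (Serpina1a), with a mean of 13.33 to 13.36 on WT HFD against 13.38 to 13.49. Of 6 endothelial genes 2 were lower in KO HFD and 1 was lower on HFD in WT. Of 7 T and NK cell genes 1 was higher in KO HFD (Cd4). The shares of all genes were 3.89% higher and 6.62% lower for genotype on HFD, and 2.94% lower for diet in WT. No gene was called in either comparison among 5 B and plasma cell genes, 5 neutrophil genes, 4 cholangiocyte genes and 1 erythroid gene. The part of these markers in the ribosomal protein values was not tested.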

How the data were processed

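The authors deposited 1 table of log2 values (12 arrays, 41345 probe sets). The submitters' processing notes name oligo without a version or method. Values (1.40 to 14.36, 0 missing) were not scaled further. Of the probe sets, 23521 had 1 gene symbol, 1814 several and 16010 none; each gene was read through its brightest probe set, and 14 ribosomal protein symbols found only on probe sets with several symbols are no members. One limma model (version 3.58.1, R 4.3.3) of lmFit and eBayes covered all 12 arrays and 5 comparisons, each adjusted over 22180 genes. The fit was tested on simulated data, where 21980 of 22180 genes were left unchanged. It called 40.3% of true differences of 0.5, 86.6% of those of 1 and 97% of those of 2, and 5 unchanged genes. A gene with a difference under 0.5 can thus go uncalled. The members and lists were chosen with earlier results of these data known. Genes were named if they were called, lay next to the threshold, were paralogs, or were Rplp0 to Rplp2, Rpsa, Rps6, Rpl13a, Rps18, Rpl5 or Rpl11; Rpl3 and Rps14 were added after their values were seen. The number of arrays limits the precision. Alternatives changed the spread model, scaling, probe set choice, signal filter and arrays used.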

Additional observations from a re-analysis of the deposited data

How the results depend on the processing

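Replicate numbers did not pair the arrays (correlations of deviations -0.064 to 0.080), and the fit with the replicate number as a block gave 6 members higher and 1 lower for KO against WT on HFD and 2 lower and 1 higher for diet in WT, where 8, 1, 9 and 1 are reported. That block fit called 3.3% of all genes higher and 6.04% lower for genotype on HFD, and 2.41% lower and 3.4% higher for diet in WT. The cause of the changes was not tested. Counts of members higher for KO against WT on HFD follow, with their share against that of all genes in the same fit. Trend and robust gave 18 (26.1% against 4.91%) and median centring 3 (4.35% against 2.46%). Among genes above the median signal there were 19 of 54 (35.2% against 10.5%). The mean and the lowest probe set gave 5 each (7.25%, against 3.78% and 3.6%). Own-chromosome probe sets, an alternative added after the data were seen, gave 3 of 62 (4.84% against 3.9%). The fit with only the arrays compared gave 2 (2.9% against 2.67%). Members lower numbered 2 above the median signal (3.7% against 15.8%) and 0 with own-chromosome probe sets (against 6.71%). Members lower for diet in WT numbered 15 with trend and robust (21.7% against 4.07%) and 2 with median centring (2.9% against 2.06%). Above the median signal there were 15 (27.8% against 9.04%). The lowest and the own-chromosome probe sets gave 5 each (7.25% against 2.69%, and 8.06% against 2.91%). The fit with only the arrays compared gave 2 (2.9% against 1.94%). Members higher numbered 0 with own-chromosome probe sets (against 4.04%). With median centring, 545 of all genes were higher and 1937 lower in KO HFD, where 862 and 1469 are reported, and the median of all genes moved to -0.06. For diet in WT, 1089 were higher and 457 lower, where 891 and 652 are reported. The interaction gave 1 member higher with trend and robust, above the median signal, with the lowest and with own-chromosome probe sets. It gave 1 lower with trend and robust, array weights, quantile normalization, median centring and above the median signal. Of all genes, 1.32% to 5.27% were higher and 2.16% to 7.3% lower in those fits. Leaving out 1 array gave 2 to 10 higher for KO against WT on HFD, against 2.36% to 3.92% of all genes. For diet in WT it gave 2 to 8 lower and 0 to 1 higher, against 1.43% to 3.22% and 2.23% to 4.4%. For the interaction it gave 0 to 2 lower, against 1.19% to 1.98%. Rps26 for genotype on HFD turned to -0.0568 with the lowest and with the own-chromosome probe set. Leaving out 1 array, Rpl22l1 ran from -0.0451 (without KO HFD replicate 1) to 0.2736 for genotype on HFD and from -0.004 (without WT HFD replicate 2) to 0.1955 for diet in WT. Of the values of named genes under all alternatives, 602 kept direction and side of the threshold, 171 lost a call, 6 gained one and 4 reversed. Over all alternatives the median of the 69 members ran from 0.1198 to 0.1934 for genotype on HFD and from -0.2057 to -0.1272 for diet in WT. Medians near 0 changed sign, to -0.0091 for genotype on chow with own-chromosome probe sets and to 0.0009 for diet in KO without KO chow replicate 1.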

Other observations

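Ribosomal protein genes whose symbols share a probe set with another gene are no members, and their probe sets were fitted over all 41345 probe sets. Such probe sets numbered 28. For HFD against chow in WT the median difference was -0.19 (23 negative, 3 called lower), and 2.94% of the 22180 genes were called lower. For KO against WT on HFD it was 0.11 (20 positive, 5 called higher), and 3.89% of the 22180 genes were called higher. Both shares come from the fit of 22180 genes. The shares called over all 41345 probe sets were not computed, so the counts and shares are not strictly alike. The 5 positive for diet in WT reached 0.32 and the 8 negative for genotype on HFD reached -0.76, with 0 of these called. The lowest interaction value was -0.92. Rpl13a, an interferon-responsive large subunit protein whose introns hold small nucleolar RNAs, shared probe sets with Snord34 and with Snord32a. These differed by -0.74 ± 0.15 and -0.49 ± 0.09 for diet in WT and by 0.78 ± 0.15 and 0.42 ± 0.09 for genotype on HFD. The other Rpl13a probe sets were not called, at -0.40 and 0.27 with Snord33 and at -0.29 and 0.11 with Flt3l. A probe set of Rpl36 and a pseudogene of it differed by -0.38 ± 0.08 and 0.33 ± 0.08. A pair of probe sets shared by Rpl12 and Gm11425 was higher in KO than WT on HFD by 0.49 ± 0.09 and 0.48 ± 0.09, and a dimmer one was not called (0.17). All of these comparisons share the WT HFD arrays, and which of the genes on a shared probe set gave the signal was not tested.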
